A study of Rattus norvegicus with 3 samples.

Results

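The regions described here lie around 3 genes of lymphocyte regulation, Bach2 on chromosome 5, Nfatc2 on chromosome 3 and Satb1 on chromosome 9 of the rat assembly rn4. They were chosen by position, as every region of the 3 deposited lists that overlaps a 1 Mb window around each gene, and the genes themselves were selected on the scores of 1 region at each of them. The windows run from 48270000 to 49270000 for Bach2, from 159280000 to 160280000 for Nfatc2 and from 2880000 to 3880000 for Satb1. They hold 164 regions of 95306 in the whole series, of which 67 are in the Bach2 window, 70 in the Nfatc2 window and 27 in the Satb1 window. DNA methylation was profiled by MBD-seq, in which sonicated genomic DNA is captured with a methyl-CpG binding domain and sequenced, in livers of newborn male Wistar rats aged 1 day. The pups came from dams fed a low protein diet (MLP), a low protein diet with added folic acid (MLP-F) or a control diet (C). Each diet is represented by 1 litter and 1 library of pooled DNA. The sample labels put 6 animals in a pool and the paper's text gives a larger number. The first library in the name of a list is the one enriched over the second at the listed regions. The lists hold 35998 regions (MLP vs. C), 33730 regions (MLP vs. MLP-F) and 25578 regions (MLP-F vs. C). Every pair of lists shares a library, and there is no replicate of any diet, so all values below describe these libraries and no difference between diets was tested. Each region has a score, which is its MACS p on a −log10 scale multiplied by 10, and the lowest score of the lists, 50, stands for a p of 1e-05. The paper kept 1183 regions of MLP vs. C under a false discovery rate limit, and far fewer of MLP vs. MLP-F. It found no differentially methylated region in MLP-F vs. C. Regions are given below whether or not they passed that limit. The highest MLP vs. C scores in the Bach2 window (390.07) and the Nfatc2 window (325.2) belong to regions outside those 1183. The lists give no read counts, so the depth behind a region is unknown here, and a score moves with the depth of both libraries as well as with the size of a difference.

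Bach2 encodes a transcriptional repressor of the BTB and basic leucine zipper family, known for holding T cells in a resting or regulatory state and for its part in antibody class switching in B cells. Nfatc2 encodes a transcription factor of the NFAT family, which enters the nucleus when calcium activates calcineurin after antigen receptor signalling and turns on cytokine genes. Satb1 encodes a nuclear protein that binds AT-rich DNA and organises chromatin loops in developing thymocytes. Rodent liver around birth still forms blood cells beside its hepatocytes. A region's signal is a sum over all cells of the liver, so a change in the share of a cell type and a change in methylation within a cell cannot be told apart. Expression of these genes was not measured in these lists.

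MBD capture takes up DNA with methylated CpG sites. The reference sequence around a start site of each gene is shown so that its CpG content can be seen, which does not give its methylation. The sequences are RefSeq's, on the later assembly GRCr8, each covering 250 bases before and 50 bases after the start of a transcript that begins inside the outer bounds of its gene. The Bach2 sequence is chr5:51513155-51513454 on the plus strand, the Nfatc2 sequence chr3:177732925-177733224 on the minus strand and the Satb1 sequence chr9:4989876-4990175 on the minus strand. They are written 5′ to 3′ with every CG in capitals, and their positions cannot be set against those of the regions, which are on rn4.
Bach2 start site: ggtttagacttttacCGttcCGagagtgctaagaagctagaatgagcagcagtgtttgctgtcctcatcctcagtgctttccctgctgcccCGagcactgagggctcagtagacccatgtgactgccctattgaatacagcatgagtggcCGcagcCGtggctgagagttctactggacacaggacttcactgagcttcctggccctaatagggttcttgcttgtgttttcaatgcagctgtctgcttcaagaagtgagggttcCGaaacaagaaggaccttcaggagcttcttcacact
Nfatc2 start site: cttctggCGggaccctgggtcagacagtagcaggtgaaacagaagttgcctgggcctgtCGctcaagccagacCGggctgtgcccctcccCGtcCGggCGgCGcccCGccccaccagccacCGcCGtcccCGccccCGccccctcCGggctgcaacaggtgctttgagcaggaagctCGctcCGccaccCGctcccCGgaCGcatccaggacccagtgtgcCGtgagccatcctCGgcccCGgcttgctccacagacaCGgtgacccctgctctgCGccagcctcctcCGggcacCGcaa
Satb1 start site: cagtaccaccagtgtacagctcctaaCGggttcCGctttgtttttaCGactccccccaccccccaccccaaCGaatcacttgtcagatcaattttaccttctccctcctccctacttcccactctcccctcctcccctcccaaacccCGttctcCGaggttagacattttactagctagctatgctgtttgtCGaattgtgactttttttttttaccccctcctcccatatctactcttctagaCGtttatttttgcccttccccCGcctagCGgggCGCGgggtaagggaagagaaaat
The Nfatc2 sequence held 25 CG, the Satb1 sequence 12 and the Bach2 sequence 6, against a median of 7 over 33469 promoters of the same length. CG reads the same on both strands, and 94.5% of those promoters held at least 1. At least as many CG as in these sequences were found in 16.6% of promoters for Nfatc2, 37.1% for Satb1 and 56.3% for Bach2. These counts describe the reference only, and whether a listed region covers any of the 3 sequences was not checked. The study's annotation places the Bach2 and Satb1 regions within introns.

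The called region of Bach2, in an intron, spans 48775332 to 48775958 (627 bp). Its score was 129 in MLP vs. C, where 18.3% of the list scored higher, and 168 in MLP vs. MLP-F, where 14.8% did. It was not listed in MLP-F vs. C, whose nearest region (48752362 to 48753482, score 80.0) lay 21849 bp away. The study's annotation names a LINE and an LTR element, tandem repeats and low-complexity sequence at this region.

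The called region of Nfatc2 spans 159782733 to 159783577 (845 bp). It scored 131 in MLP vs. C and 204 in MLP vs. MLP-F, the highest of the 3 called regions in both lists, with 17.7% and 10.1% of those lists above it. In MLP-F vs. C it was not listed, and the nearest region there (159742106 to 159742445, score 55.6) lay 40287 bp away. The annotation labels it as downstream of the gene, but its own distances put this region and the intronic Nfatc2 region on opposite sides of the start site, so the label cannot hold together with them. Short interspersed elements, a tandem repeat and low-complexity sequence are named at it.

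The called region of Satb1, in an intron, spans 3376366 to 3376704 and is the shortest of the 3, at 339 bp. It scored 128 in MLP vs. C and 144 in MLP vs. MLP-F, with 18.6% and 19.8% of those lists above it, and was not listed in MLP-F vs. C. Here the closest MLP-F vs. C region (3365517 to 3366173, score 70.4) lay 10192 bp away. No repeat is named at it. In its own window it had the highest score of the 11 regions of MLP vs. MLP-F and the third highest of the 10 regions of MLP vs. C. At Bach2 the called region stood in place 5 of 27 regions in MLP vs. C and 6 of 19 in MLP vs. MLP-F, and at Nfatc2 in place 4 of 21 and 5 of 32. The 3 regions thus had the same pattern over the lists, which the choice of the genes fixed, and at Bach2 and Nfatc2 they were not the strongest regions of their surroundings.

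**Figure D1:**
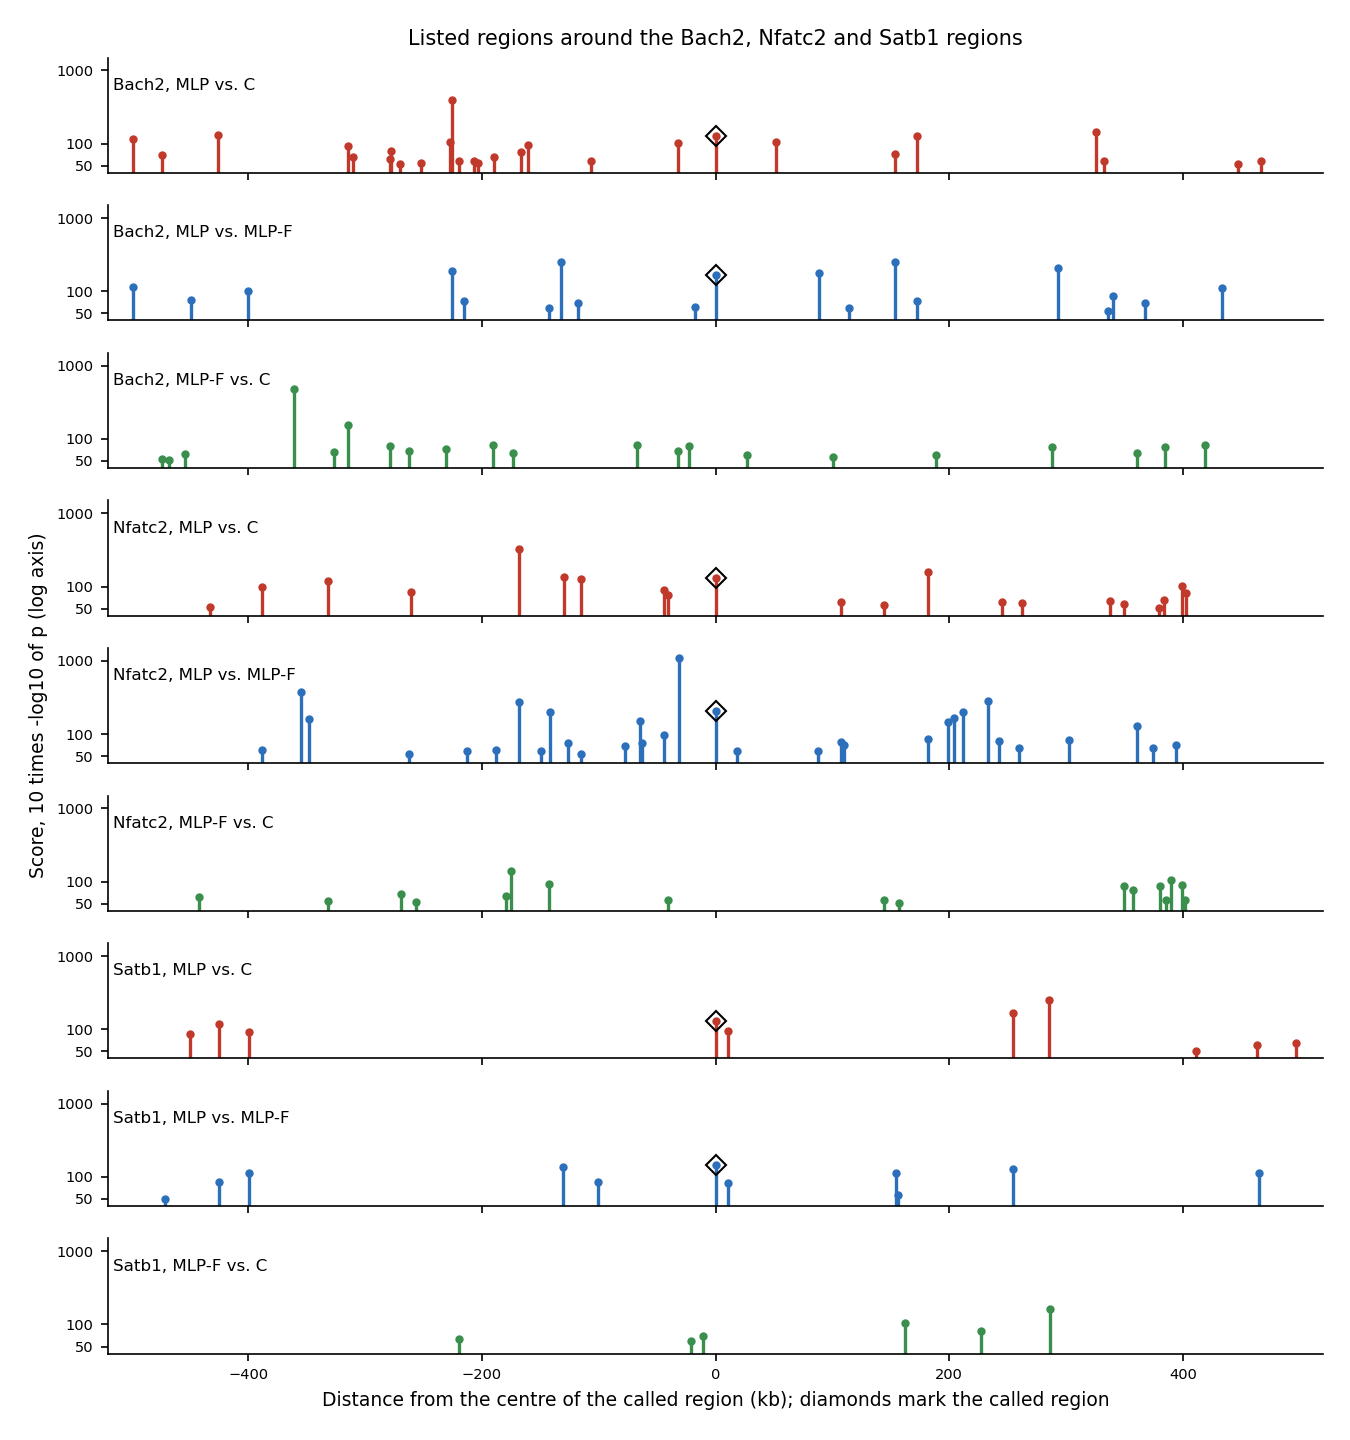
Score (log axis) of every listed region in the windows of Bach2, Nfatc2 and Satb1 against its distance in kb from the centre of the called region, 1 strip for each window and list; diamonds mark the called regions. The tallest lines are the MLP vs. MLP-F region near Nfatc2 with a score of 1089, at −31.2 kb from the called region, and the one of MLP-F vs. C at −360 kb of Bach2 with 486.

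The Bach2 window held 27 regions of MLP vs. C, 19 of MLP vs. MLP-F and 21 of MLP-F vs. C, which covered 1.93%, 1.45% and 1.58% of its bases. In the RefSeq order of named protein-coding genes on GRCr8, Bach2 lies between Map3k7, a kinase of inflammatory signalling also known as Tak1, and Gja10, a connexin, with Casp8ap2, a caspase-8 binding protein that also acts in histone mRNA processing, next to Gja10. The highest score in MLP vs. C was 390.1 (48550129 to 48550920), with 1.06% of that list above it, and the same bases scored 188 in MLP vs. MLP-F. The highest in MLP-F vs. C was 486 (48414852 to 48415456), with 0.219% of the list above it, and no region of either MLP list overlapped it. In these lists the strongest signal near Bach2 thus lay on the same side of the called region, at −225 kb in MLP vs. C and −360 kb in MLP-F vs. C. In MLP vs. MLP-F the strongest region lay on the other side, at 154 kb (score 252.0). A region at −132 kb scored almost the same there, 251.7, so the side of the strongest signal is not settled in that list.

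Other Bach2 regions took different orders over the lists. At 48929100 to 48929736 the score was 72.6 in MLP vs. C and 252 in MLP vs. MLP-F, the widest ratio among shared regions of the 3 windows in that direction. At 48947657 to 48948208, annotated to an intron of Casp8ap2, it was 129 in MLP vs. C and 73.3 in MLP vs. MLP-F. The region annotated to Map3k7 (48349334 to 48350012) scored 131 in MLP vs. C and was in neither other list. At 48460675 to 48461531 the MLP vs. C score was 94.1, and the overlapping MLP-F vs. C region (48460835 to 48461562) scored 155. That MLP-F vs. C region was 1 of 5 in the window that overlapped an MLP vs. C region, and none of the 5 overlapped an MLP vs. MLP-F region.

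The Nfatc2 window held the most regions of the 3 windows in MLP vs. MLP-F. It had 32 there, 21 in MLP vs. C and 17 in MLP-F vs. C, covering 2.90%, 1.63% and 1.40% of its bases. Named neighbours of Nfatc2 in the RefSeq order are Kcng1, a potassium channel subunit, on one side and Atp9a, a P-type ATPase of membranes, and Sall4, a zinc finger factor of embryonic stem cells, on the other. The region with the highest score of all 164 lies at −31.2 kb from the called region, at 159751259 to 159752659 (1401 bp). It scored 1089 in MLP vs. MLP-F, in place 65 of 33730, and was in neither MLP vs. C nor MLP-F vs. C. The strongest entry of the locus was therefore one with no counterpart against C. It is also not among the regions that the study annotated, which are those the authors kept under their false discovery rate limit. On the other side of the called region, 5 MLP vs. MLP-F regions follow each other over 45.3 kb (159981095 to 160026369) with no region of another list between them, and their scores ran from 81.5 to 282.

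The intronic Nfatc2 region of the annotation (159667727 to 159668312) is another entry of the gene in both MLP lists, with 126 in MLP vs. C and 52.9 in MLP vs. MLP-F. Its score against MLP-F was close to the lowest the list allows, whereas that of the called region was above its score against C. A region at 159614814 to 159615498 had the highest MLP vs. C score of the window, 325, and 271 in MLP vs. MLP-F. At 160182426 to 160183036 the score was 102 in MLP vs. C, and the overlapping MLP-F vs. C region scored 91.2. This pair belongs to the far end of the window, where 7 of its 17 MLP-F vs. C regions lie between 160132414 and 160185923. A further MLP vs. MLP-F region (159641180 to 159642101, score 203) and an MLP-F vs. C region (159640356 to 159640852, score 93.5) lay 327 bp apart without overlap.

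The Satb1 window held the fewest regions of the 3 in each list, with 10 regions in MLP vs. C, 11 in MLP vs. MLP-F and 6 in MLP-F vs. C, covering 0.677%, 0.699% and 0.435% of its bases. Its nearest named protein-coding genes in the RefSeq order are Tbc1d5, a regulator of Rab GTPases, and Kcnh8, a potassium channel. In MLP vs. C no region was listed over 399 kb on one side of the called region (2977313 to 3376365). On its other side a region 10021 bp away (3386726 to 3387157) was in both MLP lists as well, with 93.4 in MLP vs. C and 81.8 in MLP vs. MLP-F. The intronic Satb1 region thus had a companion with the same pattern over the lists. The strongest region of the window in MLP vs. C, 3662029 to 3662804 with a score of 251, was not in MLP vs. MLP-F, and overlapped the strongest of MLP-F vs. C (3662401 to 3662933, score 161). At 3630248 to 3631487, nearer to Satb1 at 254 kb from the called region, the score was 165 in MLP vs. C and 127 in MLP vs. MLP-F. There was no entry in MLP-F vs. C, so the pattern was again that of the called region. With the called region included, 5 of the 10 MLP vs. C regions of the window had it, against 38.3% of the whole list.

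**Figure D2:**
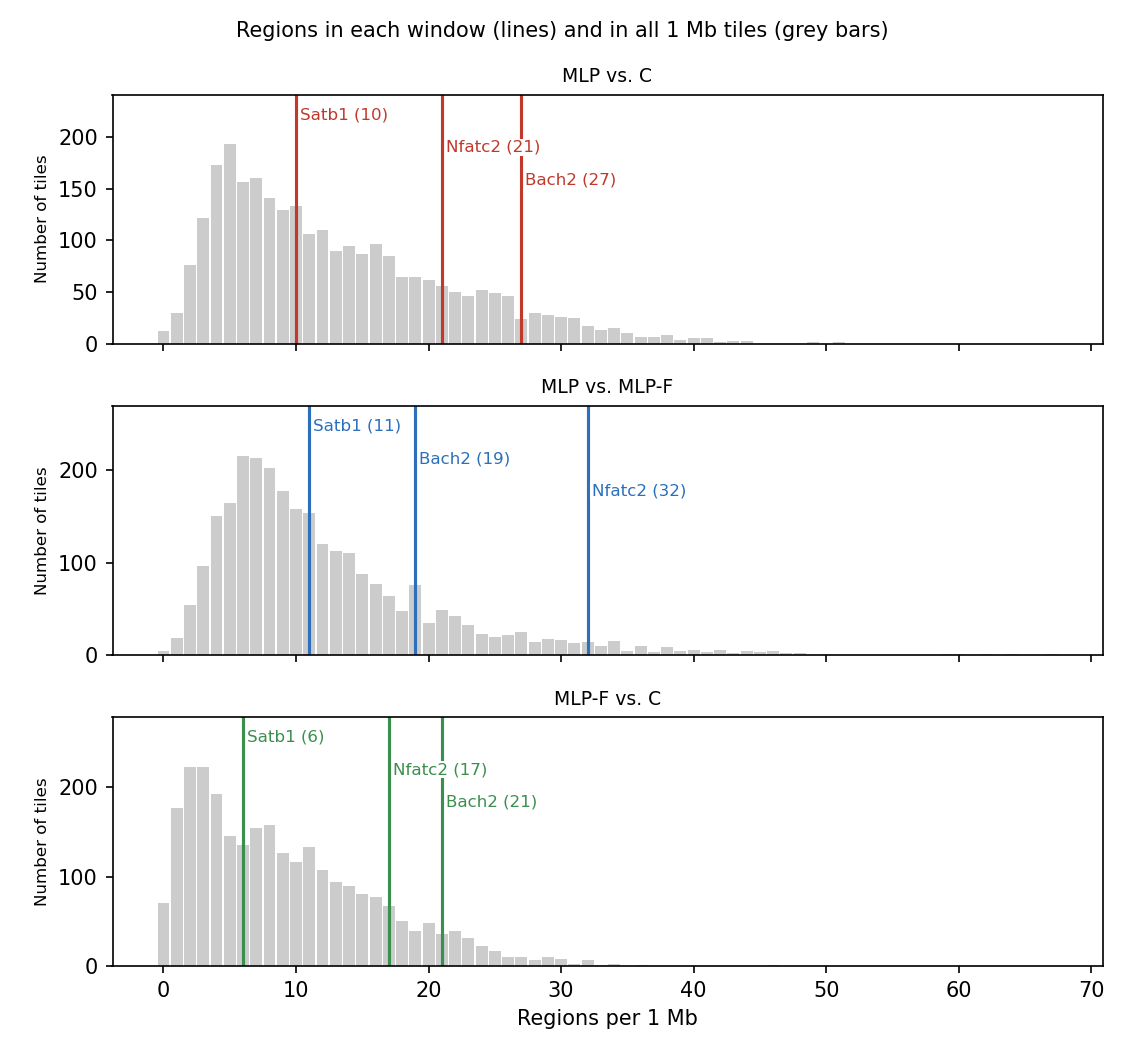
Number of listed regions per 1 Mb in each window (coloured lines with the count) and in all 2710 tiles of 1 Mb of the placed chromosomes (grey bars), for each list. Satb1 lies near the middle of each distribution with 10, 11 and 6 regions, and the Nfatc2 count of 32 in MLP vs. MLP-F lies in its upper tail.

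Set beside 2710 tiles of 1 Mb over the placed chromosomes, the Bach2 and Nfatc2 windows held more regions than the median tile in every list, and the Satb1 window did so in MLP vs. MLP-F alone. In both MLP lists these counts include the called regions, whose listing the choice of the genes fixed. Without its called region the Satb1 window held 10 regions of MLP vs. MLP-F, no more than the median tile. The median tile held 11 regions of MLP vs. C, 10 of MLP vs. MLP-F and 8 of MLP-F vs. C. As many regions as in the Bach2 window or more were found in 8.41% of tiles in MLP vs. C, 17.8% in the list against MLP-F and 7.53% in MLP-F vs. C. For Nfatc2 the percents were 19.4%, 3.84% and 15.1%, and for Satb1 56.0%, 46.3% and 62.0%. Scores in the windows were close to those of the whole lists. Their medians were 79.8 in MLP vs. C, 85.0 in MLP vs. MLP-F and 67.5 in MLP-F vs. C, against 77.4, 81.8 and 69.4 over all regions.

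Of the 58 MLP vs. C regions in the windows, 17 were also in MLP vs. MLP-F. They include the 3 called regions, whose place in both MLP lists was fixed by the choice of the genes, so shares are given without them. Of the other 55 regions, 14 were in MLP vs. MLP-F (25.5%, 95% Wilson interval 15.8 to 38.3%), against 39.4% of the whole list. By window these were 4 of 26 at Bach2 (15.4%), 6 of 20 at Nfatc2 (30%), among them the intronic region, and 4 of 9 at Satb1 (44.4%). A further 13 of the 55 overlapped a region of MLP-F vs. C (23.6%, interval 14.4 to 36.3%), near the 22.6% of the whole list, with 5 at Bach2, 7 at Nfatc2 and 1 at Satb1. The last 28 were in MLP vs. C alone, 17 of them at Bach2, or 65.4% of its 26 regions, compared with 39.1% over the list. None of the 55 was in all 3 lists, compared with 1.11% of all MLP vs. C regions, so this count of 0 is near the background. The intervals cover counting error only, and regions of a window are not independent of each other.

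Read from the other side and again without the called regions, 14 of 59 MLP vs. MLP-F regions of the windows were in MLP vs. C (23.7%, interval 14.7 to 36.0%), against 42.1% of all its regions. Nfatc2 gave 25 of the 45 that were not, among them the region with a score of 1089. At Bach2 the highest of 14 was 252, at 48643472 to 48644127. For Satb1 the highest of 6 was 135, at 3245872 to 3246218. None of the 59 overlapped a region of MLP-F vs. C (upper bound of the interval 6.11%), against 1.27% of the whole list, so the count of 0 is near the background. Of the 44 MLP-F vs. C regions, 31 were in no other list, 16 of them at Bach2, and 68.1% of the whole list were in no other.

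**Figure D3:**
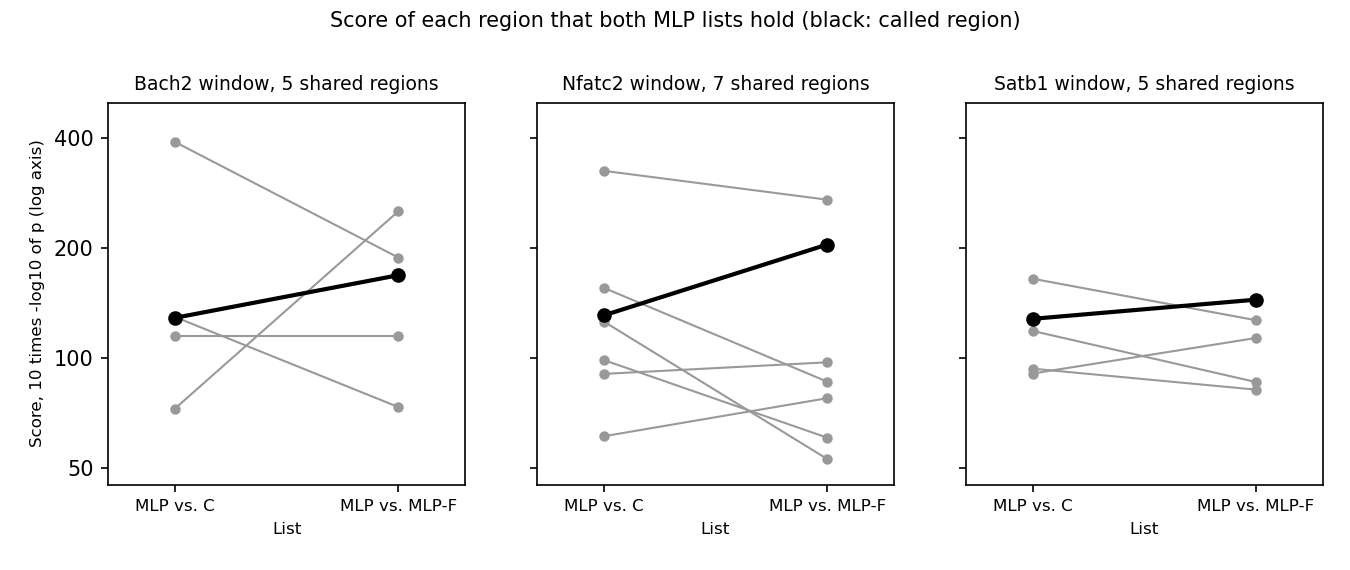
Score (log axis) in MLP vs. C and in MLP vs. MLP-F of the 17 regions that both lists hold, by window; each line joins 1 region and black lines are the called regions of Bach2, Nfatc2 and Satb1. The black lines end higher in MLP vs. MLP-F, at 168, 204 and 144, while grey lines go either way.

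All 17 shared regions had the same start and end in both MLP lists, as 100% of such pairs did in the whole lists, so these entries compare the same bases of the MLP library with each of the other libraries. The score was higher in MLP vs. MLP-F for 7 of the 17 and lower for 9. The 7 include the called regions of Bach2, Nfatc2 and Satb1, for which the scores against MLP-F were among the values that chose them. Without these it was higher for 4 of 14, against 48.8% of all shared regions. At 48276357 to 48277162, at the edge of the Bach2 window, the score was 115 in both lists, equal to 2 decimals as in 5.45% of shared regions. For the 13 regions shared with MLP-F vs. C, none had the same start and end in both lists. The same held over the whole lists, where 0% of the 8144 shared regions did.

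Other lymphocyte regulators were read from a list of 40 transcription regulators, of which the annotation names 8 for a deposited region, with 10 regions in all. Only 1183 regions of MLP vs. C are annotated, those the authors kept at a false discovery rate of 5% on these libraries. The 32 genes not named may therefore have regions too. The MLP vs. C scores of the 10 lie between 123 and 131, a band that holds 73.3% of all annotated regions, so it is not particular to the regulators. Among the 10, 4 were also in MLP vs. MLP-F, against 51.6% of all annotated regions, and they are the Bach2 region, both Nfatc2 regions and the Satb1 region. A further 4 overlapped MLP-F vs. C, against 27.5%. Gata3, a factor of T helper cells, had a region (chromosome 17, 79955734 to 79956314) with 128 in MLP vs. C and 116 in MLP-F vs. C. Runx1, a factor of blood stem cells, had 2 regions, with 127 in MLP vs. C for each and 58.3 and 79.0 in MLP-F vs. C. The region of Foxp1, which keeps T cells quiescent, scored 127 in MLP vs. C and 80.5 in MLP-F vs. C. Those of Bcl11b, which commits cells to the T lineage (chromosome 6, 131895797 to 131896377), and Zeb1, a zinc finger repressor (chromosome 17, 60176144 to 60176756), scored 123 and 126 in MLP vs. C and were in no other list. So 0 of the 6 regions of the 5 genes other than Bach2, Nfatc2 and Satb1 were in the MLP vs. MLP-F list. The split between the 3 genes and the other 5 follows from how the 3 were chosen, and with 1 library per diet it was not tested.

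**Figure D4:**
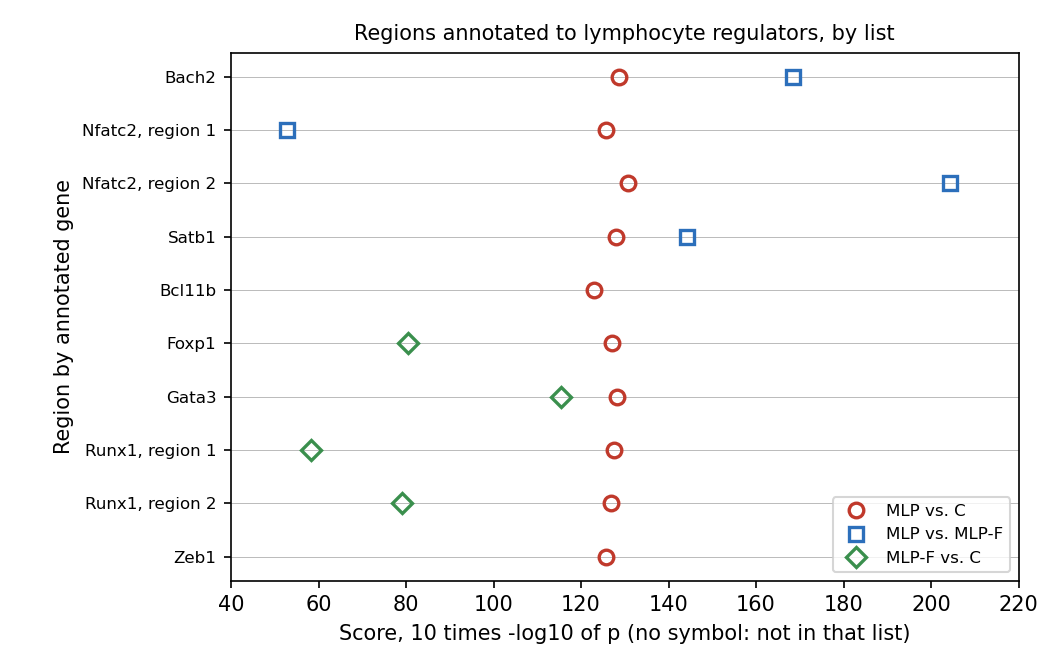
Scores of the 10 regions annotated to 8 lymphocyte regulators in MLP vs. C (circles), MLP vs. MLP-F (squares) and MLP-F vs. C (diamonds); a missing symbol means that no region of that list overlaps. Squares appear for Bach2, Nfatc2 and Satb1, from 52.9 to 204, and diamonds for Foxp1, Gata3 and Runx1, from 58.3 to 116.

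The windows end at set positions, with listed regions on both sides of each edge. Just inside the Nfatc2 window a region of MLP-F vs. C scored 62.1 (159340993 to 159341410), and just outside one of MLP vs. MLP-F scored 672 (159248892 to 159250294). At Bach2 the last region inside scored 58.9 in MLP vs. C and the next one outside 146 in MLP vs. MLP-F (49356367 to 49357213). At Satb1 the first region inside scored 50.4 and the one before it 55.6, both in MLP vs. MLP-F. The region just outside the Nfatc2 window thus scored higher than all but 1 of the regions inside it.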

How the data were processed

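Livers of newborn rats gave 1 MBD-seq library for each of the 3 maternal diets, with DNA pooled over animals. Read pairs were aligned by the authors with Bowtie (rn4, 1 alignment kept for a pair), and MACS was then run between libraries. CASAVA is also named in the submitters' processing notes. No tool version is given in the sources used here. The deposited score of a region is 10 times the −log10 of its MACS p, and the deposited lists give no read count, fold or FDR. By the study's table of reads the MLP library was the deepest and C the shallowest. The libraries compared in a list therefore differ in depth, and scores of different lists are not on the same footing. Regions lower in the first library of a pair were not analysed here.

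Starts were converted to 1-based positions. A region belonged to a window, and was shared between lists, with an overlap of at least 1 bp. Places are by score, with ties given the last of their places. Counts per window were set beside all full 1 Mb tiles of the placed chromosomes, and shares beside those of the whole list, with 95% Wilson intervals. The overlap code was checked on simulated data. Gene names, places and repeats come from the study's annotation and gene order and start-site sequences from RefSeq on GRCr8. All 3 genes matched by symbol. No rn4 sequence was used here. The members, windows and gene list were chosen with earlier results of these data known. By rule, the genes named are the 3 members, genes that the study's annotation names for a region in the windows, and members of a list of 40 lymphocyte regulators that the same annotation names. The flanking genes Gja10, Kcng1, Atp9a, Sall4, Tbc1d5 and Kcnh8 fall outside that rule and were added for their position alone, after values had been seen. Alternatives were a score of at least 100, lists of equal size, windows of 500 kb, midpoints, an overlap of 50% of both regions, regions within 1 kb, shifted tiles, leaving out unplaced sequence and, chosen after seeing the data, leaving out the called regions. Python 3.11.15, numpy 2.4.6, pandas 2.3.3, SciPy 1.17.1 and matplotlib 3.10.9 were used.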

Additional observations from a re-analysis of the deposited data

How the results depend on the processing

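Of 129 values under the alternatives, 78 stayed within 1.5 times the reported count or within the 95% Wilson interval of the reported share, and 51 did not. Midpoints in place of overlaps, tiles shifted by 500 kb and leaving out unplaced sequence moved none of them, nor did leaving out the called regions, an alternative chosen after seeing the data. A score of at least 100 moved 21 values and windows of 500 kb moved 7. Both settings can only lower a count, so these moves say little about how stable the results are. No paired analysis was possible because each diet has 1 library. No library was left out for the same reason, and diet, litter and library cannot be told apart. The lists give no depth for single regions, nor any value for regions below their threshold.

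At a score of at least 100, the Bach2 window kept 9 regions of MLP vs. C (6825 bp), 9 of MLP vs. MLP-F (7993 bp) and 2 of MLP-F vs. C (1333 bp). Under the same rule the Nfatc2 window kept 7 (5203 bp), 12 (12345 bp) and 2 (1236 bp), the Satb1 window 4 (2865 bp), 6 (4028 bp) and 2 (1338 bp), and the median tile 3, 4 and 1. Windows of 500 kb gave 15, 11 and 9 regions at Bach2, 10 in MLP vs. C and 6 in MLP-F vs. C at Nfatc2, and 2 in MLP vs. C and 6 in MLP vs. MLP-F at Satb1. With a score of at least 100 asked of the other list, 1 MLP vs. C region at Bach2 and 0 at Nfatc2 were in MLP-F vs. C, and 2 at Nfatc2 and 3 at Satb1 were in MLP vs. MLP-F. Of the MLP vs. MLP-F regions, 4 at Nfatc2 and 3 at Satb1 were then in MLP vs. C. With lists of equal size (25578 regions), 4 MLP vs. C regions at Nfatc2 were in MLP vs. MLP-F and 4 in MLP-F vs. C, and 4 MLP vs. MLP-F regions were in MLP vs. C. A distance of 1 kb put 1 MLP vs. MLP-F region at Nfatc2 beside MLP-F vs. C.

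Over the whole lists, a score of at least 100 was asked of both lists. The shared regions of the windows were counted with that score asked of the other list alone, so the shares at this score are not their background. Of all regions, MLP vs. C regions in MLP vs. MLP-F made up 41.6% within 1 kb, 35.0% at a score of at least 100 and 38.2% in lists of equal size. Those in MLP-F vs. C made up 20.8% with a reciprocal overlap of 50%, 24.9% within 1 kb, 10.6% at a score of at least 100 and 25.3% in lists of equal size. MLP vs. MLP-F regions in MLP vs. C made up 44.7% within 1 kb, 31.6% at a score of at least 100 and 38.2% in lists of equal size. Those in MLP-F vs. C made up 0.966% with a reciprocal overlap of 50%, 3.15% within 1 kb and 0.331% at a score of at least 100.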
